A study of Homo sapiens with 4 samples.

Results

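The apolipoprotein L genes, APOL1 to APOL6, form a cluster on the long arm of chromosome 22. All 6 were found by their symbols among the 37515 Ensembl genes with a row of counts, and 4 of them had enough reads to be tested among 14820 tested genes. RNA-seq was available for 4 libraries of Caco-2, a human colorectal carcinoma cell line that serves as a model of intestinal epithelium. In 2 libraries the cells were unstimulated and taken at 0 h, and in the other 2 they had received 60 ng/ml interferon gamma (IFNγ) in the basal compartment of a transwell for 3 h. Both groups were the same wild-type line grown the same way, and the unstimulated cells received medium only. The comparison therefore holds both the cytokine and the 3 h that passed. The study asked whether genes linked in trans to TRAFD1 respond to IFNγ in epithelial cells, and APOL1, APOL3, APOL4 and APOL6 are on that list, which was drawn from whole blood.

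IFNγ is a cytokine of T cells and natural killer cells. It binds a receptor of paired IFNGR1 and IFNGR2 chains, and the kinases JAK1 and JAK2 then pass the signal to the nucleus, where the factor IRF1 and a large set of defence genes are switched on. APOL proteins are membrane-active proteins with amphipathic helices. APOL1 is the secreted member, which circulates on high density lipoprotein and lyses trypanosomes by forming channels, whereas the other members lack its secretion signal and act inside the cell.

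The libraries held between 7171455 and 10365346 counts, and 1 CPM (a count scaled to library size after TMM normalization) stood for 7.14 to 10.3 reads. The labels were checked with 13 known IFNγ targets, of which 10 were tested and 9 called higher at 3 h, IRF1, TAP1, NLRC5 and CXCL9 among them. NLRC5 and CXCL9 had enough reads to be tested only through the IFNγ libraries. Of the targets with at least 10 counts in every library, 6 were tested and 6 called higher. Epithelial markers summed to 7670 to 9170 CPM, with CDX2 called higher and SI called lower. Both changes fell under the fold threshold once the trend of the values with GC content and transcript length was removed, and SI was -0.75 without replicate 2 of the IFNγ group. Leukocyte markers summed to 7.98 to 10.1 CPM at 0 h and 11.1 to 13.5 CPM after IFNγ, with PTPRC at 0 in 3 of the 4 libraries. Most of this difference was CD14, with 36 and 34 counts at 0 h and 59 and 65 after IFNγ (log2 fold change 0.82, 95% confidence interval 0.06 to 1.58, edgeR adjusted p = 0.116, not called), and LYZ and ITGAM were detected in every library. Endothelial markers summed to 1.26 to 1.85 and 1.85 to 2.32 CPM, with KDR at 0 throughout. Fibroblast markers summed to 97.5 to 191 and 126 to 173 CPM, nearly all of it COL1A1, with COL1A2 and DCN at 0 or 1 count. The part of these levels in the APOL values was not tested. With bulk RNA, a change in RNA per cell and a change in the share of cells cannot be told apart.

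After 3 h of IFNγ the APOL genes moved unequally. APOL6 rose 7.78-fold and APOL1 6.65-fold in mean CPM, and these 2 of the 4 tested members were called higher, against 2.88% of all tested genes. APOL1 and APOL4 had enough reads to be tested only through the IFNγ libraries, which favoured a call as higher. With at least 10 counts required in every library, 2 members were tested and 1, APOL6, was called higher, against 359 of 13355 tested genes. APOL2 was 1.85-fold higher and passed the adjusted p-value but not the fold threshold. APOL4 was 2.52-fold higher with libraries that nearly touched. APOL3 had at most 7 reads in any library, and APOL5 had 0 reads in all of them. Genes were called at an absolute log2 fold change above 1 with a p-value under 0.05 after Benjamini-Hochberg adjustment, by the quasi-likelihood test of edgeR. Calls were made for 7.28% of tested genes in either direction and for 4.40% as lower.

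**Figure D1:**
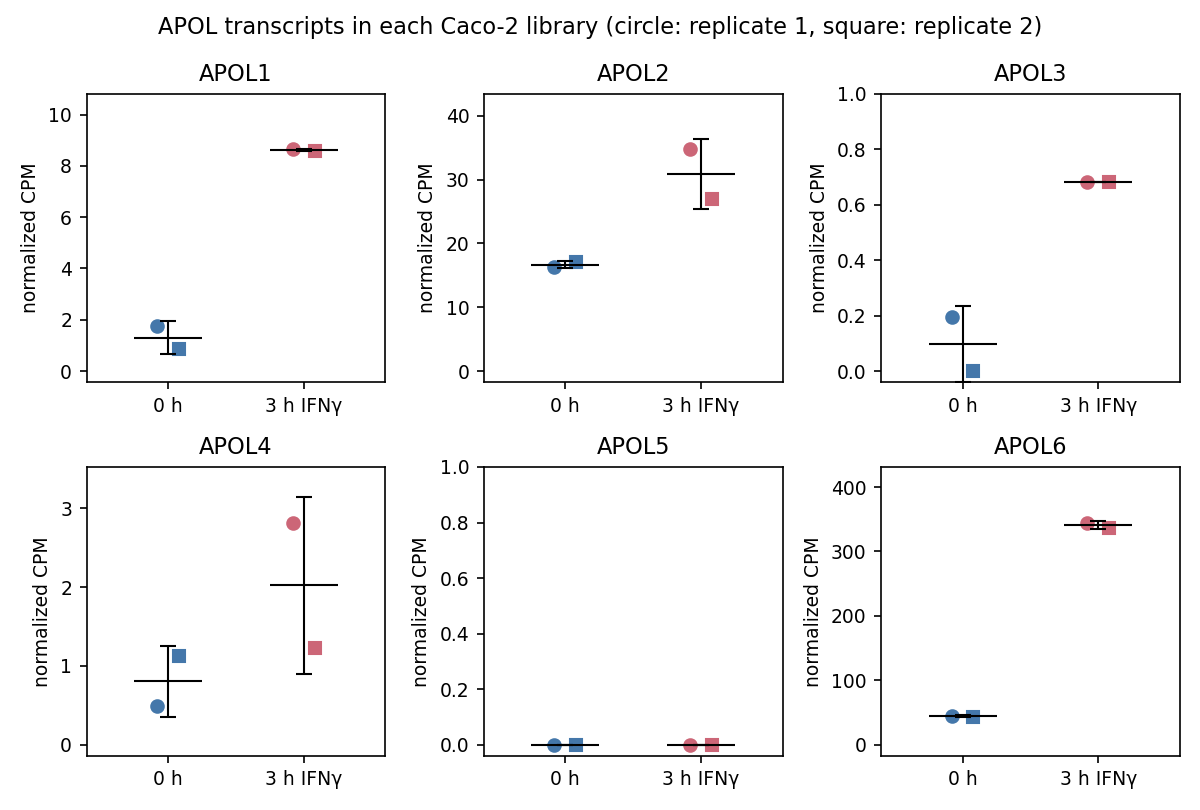
Normalized CPM (linear axis, 1 panel per gene with its own scale) of the 6 APOL genes at 0 h (blue) and after 3 h of IFNγ (red), with circles for replicate 1, squares for replicate 2, lines for means and bars for the SD (n = 2). APOL6 rises from about 44 to about 340 CPM, the APOL4 libraries nearly meet, and APOL5 stays at 0.

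APOL6 encodes an intracellular member with a BH3 motif, and its forced expression is known to cause apoptosis. It had 461 counts in replicate 1 and 305 in replicate 2 at 0 h, against 3543 and 2468 counts after IFNγ. The 4 libraries formed well separated pairs, with replicates within a few percent of each other in CPM (44.9 and 42.7 at 0 h, 345 and 337 after IFNγ). Mean levels were 43.8 ± 1.53 (SD, n = 2) and 341 ± 5.57 (SD, n = 2) CPM. The log2 fold change was 2.96 (SE 0.117, 95% confidence interval 2.68 to 3.23, edgeR adjusted p = 5.87e-05). Between libraries of the same number it was 2.93 and 2.97. APOL6 ranked 43 by log2 fold change among all tested genes. Of the 987 tested genes with at least as many normalized reads on average, 2 rose further on this scale, IRF1 and CYP1A1, which are named here because of their values. With GC content and transcript length corrected for in each library, the log2 fold change of APOL6 was 3.40.

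APOL1 was far less abundant, and it also rose. Its counts were 18 and 6 at 0 h and 89 and 63 after IFNγ. The IFNγ libraries were nearly equal at 8.66 and 8.60 CPM, and both lay above the unstimulated libraries, which differed from each other at 1.75 and 0.841 CPM. The mean rose from 1.30 ± 0.645 (SD, n = 2) to 8.63 ± 0.0431 (SD, n = 2) CPM. The log2 fold change was 2.66 (SE 0.362, 95% confidence interval 1.81 to 3.51, edgeR adjusted p = 0.00391). The size of the change rested on the unstimulated libraries: without replicate 1 of that group it was 3.33, and without replicate 2 it was 2.30. APOL1 entered the test through its IFNγ libraries, since at 0 h only replicate 1 was above the 1.14 CPM that the low count filter asks of 2 libraries.

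APOL2, an intracellular member, had the smallest log2 fold change of the 4 tested genes. It had 167 and 122 counts at 0 h and 358 and 198 after IFNγ, or 16.3 and 17.1 CPM against 34.8 and 27.0 CPM. Both IFNγ libraries were higher, with replicate 1 the higher of them. The log2 fold change was 0.90 (SE 0.177, 95% confidence interval 0.48 to 1.31, edgeR adjusted p = 0.0132), and was 1.09 and 0.65 between libraries of the same number. The adjusted p-value alone was met by 20.0% of tested genes. The interval spans the fold threshold. The log2 fold change was 1.04 without replicate 2 of the IFNγ group and 0.69 without replicate 1 of that group. With GC content and transcript length corrected for, APOL2 was at 0.68, under the threshold. Without replicate 1 of the unstimulated group its adjusted p-value was 0.0557 from the same test. On which side of the threshold APOL2 lies was thus not settled with 2 libraries per group.

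APOL4 had 5 and 8 counts at 0 h and 29 and 9 after IFNγ. Replicate 2 of the IFNγ group, at 1.23 CPM, was barely above replicate 2 of the unstimulated group, at 1.12 CPM, and replicate 1 of the IFNγ group stood apart at 2.82 CPM. The log2 fold change of 1.44 (SE 0.606, 95% confidence interval 0.02 to 2.86) did not pass (edgeR adjusted p = 0.137), and APOL4 was not called. Without the low count filter it was called, at 1.45 (edgeR adjusted p = 0.0401). The pairs gave 2.09 and 0.11. The ratio of summed counts, scaled for depth, was 2.89 (95% interval 1.51 to 5.91, exact binomial, counting error only). APOL4 too passed the low count filter only through its IFNγ libraries. In APOL2 and APOL6, which were above the filter in every library, both IFNγ libraries lay above both unstimulated ones, an order found in 31.6% of all tested genes, while 30.8% had the opposite order. APOL1 and APOL4 had the same order, which the filter favoured.

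APOL3 encodes a detergent-like protein that lyses bacteria in the cytosol of IFNγ-treated cells. It had 2 and 0 counts at 0 h and 7 and 5 after IFNγ, below the filter in every library. The IFNγ libraries were both higher, at 0.681 and 0.682 CPM against 0.195 and 0. Scaled for depth, the ratio of summed counts was 5.93, with an exact binomial 95% interval of 1.32 to 54.6 that covers counting error only. In a fit of 29357 genes without the low count filter, the log2 fold change of APOL3 was 2.47 (SE 1.13, edgeR adjusted p = 0.152). A change of APOL3 was therefore not established at this depth. APOL5 had 0 counts in all 4 libraries, which allows up to 0.292 to 0.42 CPM per library (3 counts), so its transcript was not detectable here.

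Levels of different genes were compared as CPM per kilobase of merged exons. At 0 h, APOL2 (4.88 ± 0.172, SD, n = 2) and APOL6 (4.35 ± 0.152, SD, n = 2) stood at the top, near the same level and without overlap between their libraries. APOL1 (0.375 ± 0.187, SD, n = 2) and APOL4 (0.182 ± 0.101, SD, n = 2) followed, and these neighbours overlapped. APOL3 came last of those detected, at 0.0165 ± 0.0233 (SD, n = 2). After IFNγ the order of the upper pair was inverted, with APOL6 at 33.8 ± 0.553 (SD, n = 2) and APOL2 at 9.05 ± 1.62 (SD, n = 2) CPM per kilobase. APOL1 was then at 2.49 ± 0.0124 (SD, n = 2), APOL4 at 0.458 ± 0.255 (SD, n = 2) and APOL3 at 0.115 ± 0.000161 (SD, n = 2), with no overlap between neighbours. Among 36212 genes with an annotated length, APOL6 moved on this per-length scale from the 78.3 percentile to the 96.2 percentile, and APOL1 from the 54.5 to the 73.5 percentile. The order was the same with the length of the longest transcript. APOL2 and APOL6 then stood further apart at 0 h, at 6.21 and 4.35 CPM per kilobase, so their near equality depends on the length used.

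All APOL reads together made up 62.7 ± 1.27 CPM (SD, n = 2) at 0 h and 383 ± 12.3 CPM (SD, n = 2) after IFNγ, 6.11 times as much, and most of these reads were APOL6. Corrected for exon length, APOL6 made up 45.2% and 43.6% of the APOL signal at 0 h and 71.8% and 75.6% after IFNγ. APOL2 went the other way as a share, from 48.2% and 51.3% to 21.4% and 17.9%, although its own level was higher. The share of APOL1 was 5.14% and 2.49% at 0 h and 5.25% and 5.62% after IFNγ. These shares are set within each library and do not depend on the scaling between libraries.

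**Figure D2:**
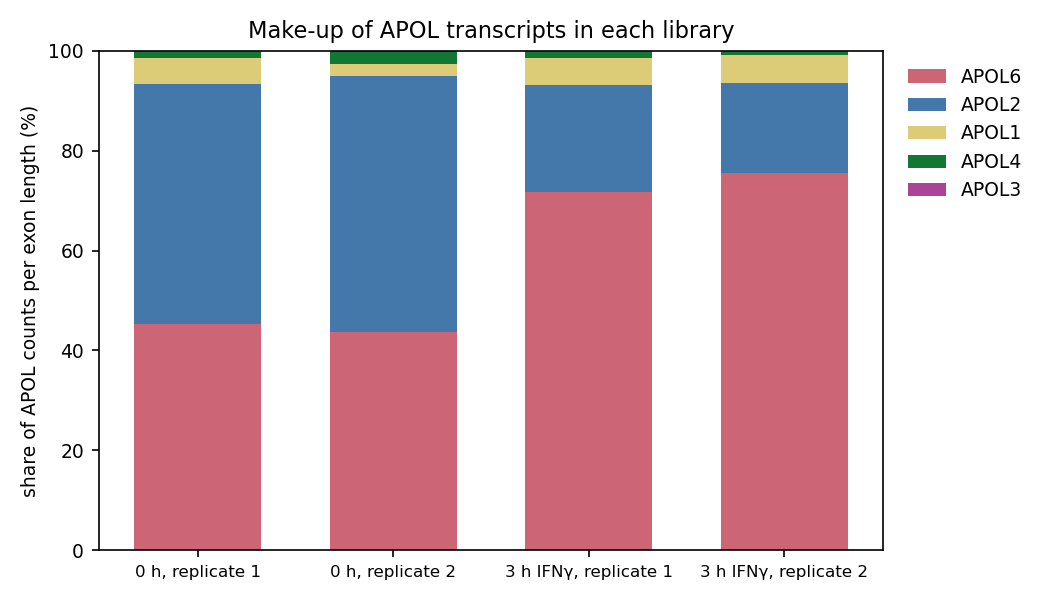
Share of each APOL gene in the APOL counts divided by merged exon length (stacked bars, percent, 1 bar per library). APOL2 and APOL6 are about equal at 0 h, and APOL6 holds 71.8% and 75.6% after IFNγ, while APOL5 has no counts.

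Ratios of raw counts within a library were also compared. There were 2.76 and 2.50 APOL6 reads per APOL2 read at 0 h, and 9.90 and 12.5 after IFNγ, so that APOL6 gained on APOL2 in both pairs. The 95% confidence intervals of their log2 fold changes, 2.68 to 3.23 and 0.48 to 1.31, did not overlap. For APOL6 against APOL1 the ratios were 25.6 and 50.8 at 0 h and lay between these after IFNγ, at 39.8 and 39.2. A difference between the increases of APOL6 and APOL1 was thus not detectable in these raw ratios at this depth. With GC content and transcript length corrected for, the log2 fold changes lay further apart, at 3.40 (SE 0.117) for APOL6 and 2.47 (SE 0.356) for APOL1. The difference between these 2 values was not tested. With 2 against 2 libraries an exact permutation test cannot give a two-sided p-value under 0.333, so the ratios are given without a test.

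The cluster lies on chromosome 22 of GRCh37 in 2 stretches (positions from GENCODE 44 lifted to this build; the counting may have used other gene models). APOL6 (ENSG00000221963, 36044493 to 36064451) and APOL5 (ENSG00000128313, 36113919 to 36125530) are on the plus strand. The large gene RBFOX2 separates them from APOL3 (ENSG00000128284, 36536377 to 36562225), APOL4 (ENSG00000100336, 36585172 to 36600886) and APOL2 (ENSG00000128335, 36622255 to 36636000), all on the minus strand. APOL1 (ENSG00000100342, 36649117 to 36663576) closes the cluster on the plus strand. APOL6 has a single annotated transcript of 10065 bases in 3 exon blocks, much longer than the merged exons of the others, which ran from 1438 bases in APOL5 to 5905 in APOL3. APOL1 has 10 annotated transcripts, APOL2 9, APOL3 22 and APOL4 13, and counts per gene do not tell them apart. No exon of the 6 genes overlaps an exon of another gene on either strand, so reads from an antisense gene do not enter these counts by annotation. The members are distinct in sequence: of the 50-base words in their transcripts, at most 0.381% (APOL1) also occur in another APOL gene. Words shared with genes outside the family on the same strand ranged from 0% in APOL3 and APOL5 to 5.08% in APOL4. Words found in other genes on the opposite strand ranged from 0 in APOL3 and APOL5 to 115 of 3675 in APOL1. These could also matter, since the strand setting of the counting is not given.

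The genes around the cluster were examined next. Of 14 neighbours, 13 had a row and 10 were tested, and of these 1 was called higher and 0 lower, against 2.88% and 4.40% of all tested genes, with a median log2 fold change of 0.14 against -0.01 over all tested genes. The called gene was HMOX1, the haem-degrading oxygenase, before APOL6. Its log2 fold change of 1.03 (edgeR adjusted p = 0.00384) was at the fold threshold, was 0.99 with scaling by library size only and 0.74 with the GC trend removed. It was 0.89 without replicate 2 of the IFNγ group and 0.93 without replicate 1 of the unstimulated group. RBFOX2, a splicing regulator within the cluster, had a log2 fold change of -0.54 (95% confidence interval -0.83 to -0.25, edgeR adjusted p = 0.0232), under the fold threshold. Its sign was opposite to that of APOL6 before it and of APOL4, APOL2 and APOL1 after it. The APOL genes nearest to RBFOX2, APOL5 and APOL3, had too few counts to be tested. MYH9, the non-muscle myosin heavy chain next to APOL1, had 0.28 (95% confidence interval 0.03 to 0.53, edgeR adjusted p = 0.103). TOM1 had 0.39, TXN2 0.35, MCM5 0.17, HMGXB4 0.11, FOXRED2 0.10, EIF3D 0.10 and IFT27 -0.16, and none of these was called. Exons of TOM1 and IFT27 overlap an antisense gene, so their counts are uncertain. RASD2, MB and CACNG2 had at most 2 counts in any library, and PVALB was not analysed here. The more distant relative APOLD1, an endothelial gene on chromosome 12, had 40 and 23 counts at 0 h and 41 and 26 after IFNγ. Its log2 fold change of 0.08 (95% confidence interval -0.63 to 0.79, edgeR adjusted p = 0.883) had an interval wholly below that of APOL6, and its exons share 1841 bases with DDX47, so its counts are uncertain.

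**Figure D3:**
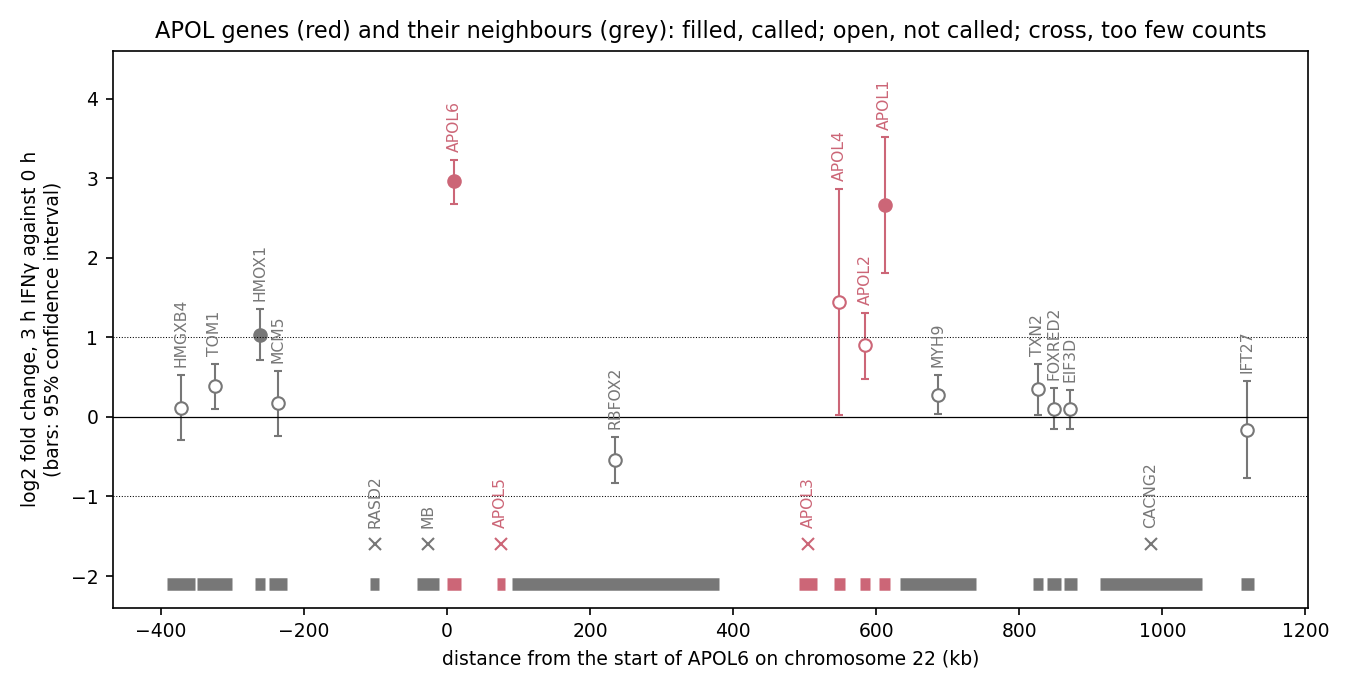
Log2 fold change after 3 h of IFNγ (points, with 95% confidence intervals) of the APOL genes (red) and their neighbours (grey) against distance from the start of APOL6 in kb, with gene bodies as bars at the bottom. Filled points are called genes, open points are not called, and crosses are genes with too few counts; APOL6 and APOL1 stand above their neighbours at both ends of the cluster.

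In a list of IFNγ receptor, kinase, transcription factor and feedback genes, 16 of 16 were tested. Of these, 4 were called higher and 1 lower (2.88% and 4.40% of all tested genes). The median log2 fold change was 0.62. Among those called higher, IRF1 had a log2 fold change of 5.86, STAT3 1.14 and IRF8 1.11. PIAS1, an inhibitor of cytokine signaling, was called lower at -1.31, and was -0.93 with the GC trend removed. Of a list of 25 effectors of cell-autonomous defence, the broad class to which APOL3 belongs, 17 were tested and 6 were called higher and 0 lower, against the same shares of all tested genes, with a median of 0.45. DESeq2 with its default filtering called 4 of them. With at least 10 counts required in every library, edgeR tested 13 of the list and called 4 higher. GBP1, a GTPase that coats cytosolic bacteria, had a log2 fold change of 2.50, inside the interval of APOL1, and TRIM21 had 1.55. GBP4 rose from 2 and 0 counts to 28 and 23, and GBP5 from 0 and 2 counts to 48 and 23. Both passed the low count filter only through their IFNγ libraries, which favoured a call as higher. The called genes also included NOS2 and GBP2, and the other 11 tested genes were not called.

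The profiles most like those of the called members were sought by the Euclidean distance between centred log2 CPM values over the 4 libraries. For APOL1 they were CSF1, the macrophage growth factor (distance 0.353), and MT-TT, a mitochondrial tRNA gene (0.361). Both were low, with 7 and 3 counts of CSF1 at 0 h against 40 and 35 after IFNγ. For APOL6 they were CMPK2, a mitochondrial nucleotide kinase (0.152), and PHLDA2 (0.218). CMPK2 had 0 counts in both unstimulated libraries and 14 and 11 after IFNγ, so its likeness to APOL6 was set by the prior count of 2. With a prior count of 0.5 the nearest were MIR22HG (0.229) and CD274 (0.297) for APOL6, and CSF1 (0.361) and GBP1 (0.381) for APOL1. MIR22HG had counts of 168 and 138 at 0 h and 1365 and 993 after IFNγ. CD274 was low, with 2 and 1 counts at 0 h and 16 and 10 after IFNγ.

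**Figure D4:**
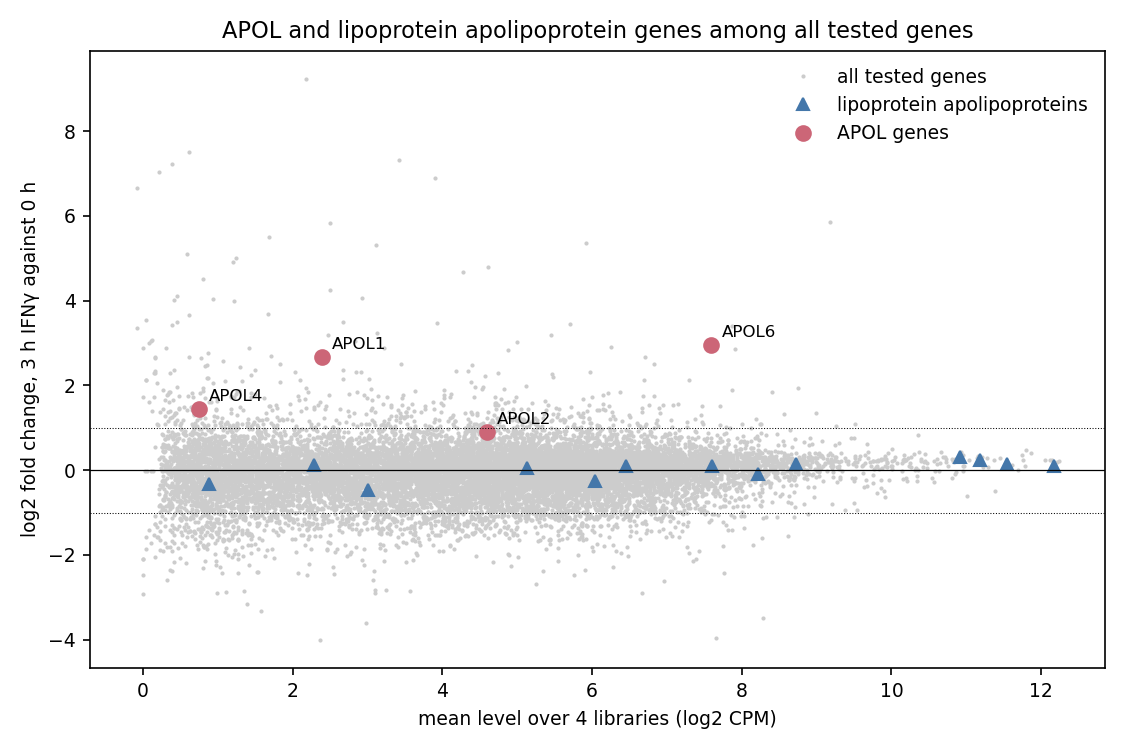
Log2 fold change after 3 h of IFNγ against mean level in log2 CPM for all 14820 tested genes (grey), the 4 tested APOL genes (red circles) and 13 genes of the lipoprotein apolipoprotein list (blue triangles), with dotted lines at the fold threshold. The list goes by name and includes APOO and APOOL. APOL6 stands above nearly all genes of its abundance at 2.96, and the listed genes lie between -0.47 (APOOL) and 0.32.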

How the data were processed

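Total RNA of 4 Caco-2 libraries (TruSeq) was analyzed. The values are read counts per Ensembl gene as deposited, raw and separate for each library. The submitters' processing notes name HISAT 0.5.1 and HTSeq 0.6.1p1, and the strand setting and annotation of these libraries are not given in the sources used here. The labels do not say whether replicates were separate cultures, so p-values measure the spread between libraries. Symbols were found for 96.5% of identifiers. Differential expression was tested with edgeR 4.0.16 in R 4.3.3 (TMM scaling, default low count filter, quasi-likelihood test, no block). Each SE is the absolute log2 change over √F, and 95% intervals use the t quantile. Log2 fold changes of pairs used a prior count of 2. On simulated data with 200 of 14523 genes changed 4-fold, 90.0% were recovered and 4.45% of calls were false. Alternatives were DESeq2 1.42.0, other scalings and filters, the replicate block, a loess correction for GC content and length, other thresholds and each library left out; DESeq2 without independent filtering was added after seeing the data. Named genes were the 6 members, the neighbours, APOLD1, the called genes of each list (at most 4, by size) and the 2 nearest profiles of each called member; CD14 was named after its values were seen. Some list genes are not reported here. The members and lists were chosen with earlier results of these data known. Intervals cover counting error only where said.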

Additional observations from a re-analysis of the deposited data

How the results depend on the processing

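APOL6 and APOL1 were called in every fit that tested them, with log2 fold changes of 2.91 to 3.40 for APOL6 and 2.30 to 3.33 for APOL1. A minimum of 10 counts in every library left APOL1 and APOL4 untested and 1 member called. Without the low count filter APOL4 was called (1.45, adjusted p = 0.0401 from edgeR) and 3 members in all. The prior degrees of freedom of that fit were infinite, however, which leaves the spread of single genes out. They were also infinite in the fit without replicate 2 of the IFNγ group. APOL2, at 0.90, was called when no fold threshold was set. With each library left out in turn, where the lone library of a group is assumed to vary like the others, the log2 fold change ran from 2.93 to 2.99 for APOL6, 2.30 to 3.33 for APOL1, 0.69 to 1.04 for APOL2 and 0.89 to 2.09 for APOL4 (not tested without replicate 1 of the IFNγ group), and 2 to 3 members were called. Over all genes, 903 to 1529 were then called, 339 to 455 higher and 554 to 1112 lower, with 1529 calls and 1112 lower without replicate 1 of the IFNγ group. An adjusted p-value of 0.01 gave 686 called genes, 382 of them lower, and no fold threshold 2963, of which 1337 were higher and 1626 lower. Log2 fold change was correlated with GC content (Spearman rho = 0.431 across 14518 genes, which are not independent replicates). With that trend removed 362 genes were lower, and 50.1% of calls were higher against 39.6%, but with the block added 599 were lower and 41.7% of calls higher. EIF3D (-0.09), FOXRED2 (-0.08) and MCM5 (-0.06) then changed sign, with and without the block. With 1 library left out, APOLD1 ran from -0.03 to 0.23, HMGXB4 from -0.08 to 0.27, MCM5 from -0.05 to 0.35 and IFT27 from -0.34 to 0.10. The cause was not tested. The labels do not say what the replicate numbers stand for. Deviations of replicate 1 from the group means correlated between the groups (r = 0.415 across 14820 genes), and with 2 pairs it was not settled whether the numbers pair the libraries. A replicate block gave 1388 called genes with 2 APOL members among them, and log2 fold changes of 2.96, 2.66, 0.90 and 1.47 for APOL6, APOL1, APOL2 and APOL4. Over 30 other named genes, alternatives other than leaving out a library gave 321 values on the same side of the threshold, 16 that lost a call, 1 that gained it and 6 that changed sign. Depth limits APOL3 and APOL5. APOL4 was limited by low counts and by the spread within both groups, at 0.804 ± 0.448 CPM at 0 h and 2.02 ± 1.13 CPM after IFNγ (SD, n = 2).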

Other observations

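The apolipoproteins of lipoprotein particles share a name with the APOL family. A list of 16 genes with apolipoprotein names included the structural proteins of chylomicrons and high density lipoprotein that enterocytes secrete. It also held APOO and APOOL, whose place in such particles was not checked. Of the 16 genes, 13 were tested and 0 were called by edgeR or by DESeq2. Log2 fold changes of the 13 ran from -0.47 (APOOL) to 0.32 with a median of 0.09, and 9 were positive. With the trend of GC content and length removed the median was -0.10 and 2 were positive, so no direction can be given. At an unadjusted p-value under 0.05, 2 of the 13 passed in edgeR and 1 in DESeq2, and 6 passed in edgeR with the replicate block. Together these genes took 12000 to 14600 CPM of the libraries, against 61.8 to 392 CPM for the APOL genes. These sums are shares of reads and are not corrected for length. Of 3 genes listed for other components of trypanolytic particles and for haemoglobin clearance, APOA1 was abundant at 2840 CPM at 0 h. Its log2 fold change was 0.14 (edgeR adjusted p = 0.383, not called). HP and HPR had at most 10 counts in any library and share near-identical sequence, so their counts are uncertain.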
